A study of Mus musculus with 7 samples.

Results

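Osteopontin, encoded by Spp1, and CD44, one of its cell-surface receptors, were followed in bile duct epithelium. Both genes were taken by name as rows of a count table, 2 genes of the 24552 gene symbols it lists. The rule used no values, but earlier results of these data were known when the genes were chosen. The table holds 7 RNA libraries of EpCAM+ cholangiocytes, the epithelial cells that line bile ducts, freshly isolated from livers of Foxp3GFPDTR mice. In this strain the Foxp3 locus, active in regulatory T cells, drives a fused GFP and diphtheria toxin receptor, so that the toxin targets those cells. All mice, controls included, carried the transgene and ate a DDC diet, which injures bile ducts, for 10 days. The control group (PBS, 4 libraries) received saline and the treated group (DT, 3 libraries) diphtheria toxin at 1 µg/kg, by intraperitoneal injection every 48 h. The labels give neither the age of the mice nor how many animals stand behind a library, and the p-values therefore rest on variation between libraries, which may be partly technical. The comparison asks how the epithelium differs when regulatory T cells are targeted during cholestatic injury.

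Osteopontin is a secreted, acidic phosphoprotein of the SIBLING family that binds integrins through an RGD sequence and can also bind CD44. In liver it is made by cholangiocytes and reactive ductular cells, by macrophages and by stellate cells, and it rises in biliary injury. CD44 is a membrane glycoprotein whose main ligand is hyaluronan. Its variable exons are spliced in many combinations, and its tail is linked to the actin cortex by ezrin, radixin and moesin. QuantSeq FWD libraries read the 3′ ends of transcripts, so the counts join the isoforms of a gene and say nothing of which Cd44 exons were used. A GRCm38 annotation (GENCODE M21) lists 7 protein-coding transcripts of Spp1 on chromosome 5 and 8 of Cd44 on chromosome 2.

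The promoters of the 2 genes are shown because the levels of known regulators of Spp1 are given further on. Each is the 250 bases before a RefSeq start site in GRCm38.p6, read in the direction of the gene, with no annotated exon of the gene inside it. Spp1 has 2 such windows listed, and only the first is shown and searched. The Spp1 window is chr5:104434861-104435110 on the plus strand, and the Cd44 window is chr2:102901666-102901915 on the minus strand. The counts were made on another build, mm9, per the submitters' processing notes, and carry no coordinates. Capitals mark the match to the RUNX motif AACCACA.
Spp1: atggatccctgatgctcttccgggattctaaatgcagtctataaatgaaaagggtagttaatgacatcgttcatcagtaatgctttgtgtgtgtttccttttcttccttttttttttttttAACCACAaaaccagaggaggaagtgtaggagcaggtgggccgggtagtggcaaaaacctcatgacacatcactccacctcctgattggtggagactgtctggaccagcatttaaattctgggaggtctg
Cd44: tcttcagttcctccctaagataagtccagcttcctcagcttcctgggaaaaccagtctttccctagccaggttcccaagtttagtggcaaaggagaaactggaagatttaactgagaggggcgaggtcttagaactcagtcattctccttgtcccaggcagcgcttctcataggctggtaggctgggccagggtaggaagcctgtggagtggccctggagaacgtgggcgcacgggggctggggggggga
Both strands were searched for the letters TGANTCA (AP-1), AACCACA (RUNX), AACAAT (SOX), CCGGAAGT (ETS) and GACCACCCA (GLI). Spp1 held the RUNX letters at bases 122 to 128, on the plus strand. Cd44 held none of the 5 motifs in this window. Of 32851 promoter windows of that length, 4.4% held the RUNX letters, 6.75% those of AP-1, 9.42% those of SOX, 2.88% those of ETS and 0.225% those of GLI. A match describes letters only and does not show that a factor binds.

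The libraries held 4805018 to 6285624 counts and reads of 5419 to 8361 genes. Each of the 10 listed cholangiocyte markers had reads in at least 1 library, among them Epcam, the marker of the sort, Krt19 and the E-cadherin gene Cdh1. Their summed level was 6191 to 6962 CPM (counts per 1000000, scaled by TMM) in PBS and 6220 to 7689 CPM in DT. Foxp3 had 0 counts in each library, which by counting error allows up to 3, and depletion itself was not measured in these sorted cells. Reads of Y-linked genes were present in PBS 1 and in all 3 DT libraries and absent from PBS 2, PBS 3 and PBS 4. Counts of 0 were common at low levels: a library was at 0 in 43.5% of cases when its group's other libraries averaged 100 to 200 counts, and in 1.17% when they averaged 1000 to 2000. Both members lay far above that range.

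Spp1 was among the most heavily read genes of the injured epithelium in both groups, and its mean was higher after the toxin without passing the test across all genes. Its counts were 43008, 58949, 58744 and 62414 from PBS 1 to PBS 4, against 70369, 80453 and 81854 from DT 1 to DT 3. It ranked 3 or 4 among all gene symbols by count in each library. Counts were not divided by gene length, because each read comes from a 3′ end, and ranks therefore order reads. On the TMM-scaled CPM scale Spp1 stood at 8348, 11622, 12100.3 and 12321 from PBS 1 to PBS 4, against 11689.9, 15109 and 14437 from DT 1 to DT 3. PBS 1 was the lowest library of all, and DT 1 lay among the other PBS libraries, so the groups overlapped on this scale.

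The Spp1 mean was 11098 ± 1856 CPM in PBS (SD, n = 4) and 13745 ± 1811 CPM in DT (SD, n = 3). In the edgeR quasi-likelihood fit the log2 fold change, DT minus PBS, was 0.31 (SE 0.15), a 1.24-fold higher level with a 95% interval of 1.01 to 1.52. The unadjusted p was 0.0434 and the p adjusted over 7688 tested genes was 1.00 (edgeR, Benjamini-Hochberg). In the same fit 0% of genes passed the adjusted threshold of 0.05 as higher in DT and 0.039% as lower, and 1.39% were higher at an unadjusted p below 0.05. DESeq2 called 27 genes higher and limma-voom 15, Spp1 by neither. The difference in mean CPM was 2647, with a two-sided exact permutation p of 0.171, where 4 against 3 libraries can give no p below 0.0571. Without PBS 1 the edgeR log2 fold change was 0.18 (unadjusted p = 0.21). With a covariate for Y-linked reads, present or absent, it was 0.72. Only PBS libraries lacked Y-linked reads, so that fit compares the DT libraries with PBS 1 alone. The covariate cannot separate Y-linked reads from that single control library, and what Y-linked reads have to do with the result was not tested.

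Whether the Spp1 groups stood apart depended on the scaling. As a share of all counts with no scaling, Spp1 made up 0.871%, 1.14%, 1.22% and 1.13% from PBS 1 to PBS 4, against 1.24%, 1.40% and 1.30% from DT 1 to DT 3. Every DT library then lay above every PBS library, as 3.55% of all tested genes did and 6.28% of the 733 best-read genes (average log2 CPM at least 8). The margin was narrow: the 95% Wilson interval for counting error was 1.21% to 1.23% in PBS 3 and 1.23% to 1.25% in DT 1, and the bounds overlapped before rounding. With RLE factors the highest PBS library was at 12454 CPM and the lowest DT library at 12826 CPM, a gap in the same direction as in 3.68% of tested genes. Per 1000 reads of the cholangiocyte markers, Spp1 had 1349 to 1816 reads in PBS and 1878 to 2341 in DT, also with no overlap (as for 3.52% of tested genes), although one of those markers, Sox9, itself had a higher mean in DT. On these 3 scales the exact permutation p was 0.0571, the smallest this design allows. In bulk samples, fewer cells of a type and less RNA per cell cannot be told apart.

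**Figure D1:**
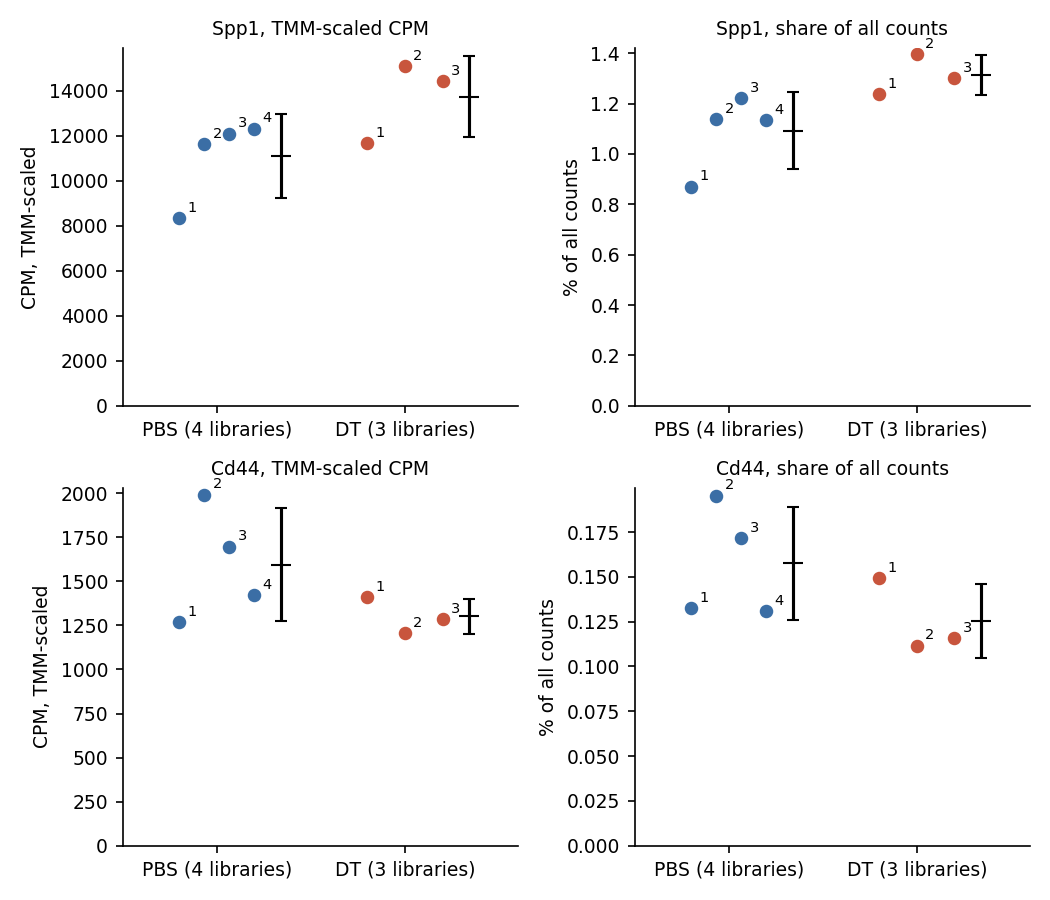
Level of Spp1 (top) and Cd44 (bottom) in each library, as TMM-scaled CPM (left) and as a percentage of all counts (right), in PBS (blue, 4 libraries) and DT (red, 3 libraries); points are libraries with their replicate number, and the bar is the mean ± SD. Spp1 in DT 1 (11689.9 CPM) lies among the PBS libraries on the left and above all of them (1.24%) on the right, while the Cd44 groups overlap on both scales.

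Cd44 was also among the well-read genes, and its mean was lower in DT with overlap between the groups. Its counts were 6543, 10105, 8240 and 7204 from PBS 1 to PBS 4, against 8485, 6433 and 7286 from DT 1 to DT 3. The TMM-scaled levels were 1270.0, 1992, 1697 and 1422 CPM from PBS 1 to PBS 4, against 1409.5, 1208 and 1285 CPM from DT 1 to DT 3. PBS 2 and PBS 3 were the highest libraries, DT 2 was the lowest, and PBS 1 lay below both DT 1 and DT 3. The mean was 1595 ± 318 CPM in PBS (SD, n = 4) and 1301 ± 102 CPM in DT (SD, n = 3).

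The log2 fold change of Cd44, DT minus PBS, was -0.29 (SE 0.25, edgeR unadjusted p = 0.254, adjusted p = 1.00). As a fold this was 0.815, with a 95% interval of 0.571 to 1.16. The exact permutation test of the CPM gave a two-sided p of 0.229. Ranks by count ran from 33 (PBS 2) to 68 (PBS 1) in PBS and from 57 (DT 1) to 95 (DT 3) in DT. The log2 fold change was -0.17 without PBS 2 (edgeR adjusted p = 1.00). With Y-linked reads as a covariate, which leaves PBS 1 as the only control, it was 0.03, the other direction.

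Both genes varied between libraries of a group, as other well-read genes did. The coefficient of variation of Spp1 CPM was 16.7% in PBS and 13.2% in DT, and that of Cd44 was 19.9% and 7.81%. Among 111 genes with a mean of at least 1000 CPM the median was 20.2% in PBS and 19.3% in DT. In PBS 36.9% of those genes varied less than Spp1 and 45.9% less than Cd44, and in DT 26.1% and 13.5%. From the lowest to the highest PBS library, Spp1 CPM differed 1.48-fold and Cd44 CPM 1.57-fold.

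Spp1 reads per Cd44 read, a ratio within a library that no scaling can change, were 6.57, 5.83, 7.13 and 8.66 from PBS 1 to PBS 4, against 8.29, 12.5 and 11.2 from DT 1 to DT 3. DT 2 and DT 3 lay above every PBS library, and DT 1 lay just below PBS 4. The mean ratio was 7.05 ± 1.20 in PBS (SD, n = 4) and 10.7 ± 2.16 in DT (SD, n = 3). On the log2 scale the difference was 0.59, with a two-sided exact permutation p of 0.114. Leaving out 1 library at a time gave 0.47 to 0.76. The ratio combines the separate differences of the 2 genes and is not a further observation.

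The relation between log2 CPM of Spp1 and of Cd44 was computed in 3 ways, none with a p below 0.05. Over all 7 libraries Pearson's r was -0.12 (exact permutation p = 0.778) and Spearman's rho was -0.36 (exact permutation p = 0.444). Without PBS 1 and DT 2, the libraries farthest from the Spp1 median, r was -0.66 (exact permutation p = 0.25) and rho -0.70 (exact permutation p = 0.233) over 5 libraries. After taking off the mean of each group, r was 0.35 (exact permutation p = 0.425) and rho -0.07 (exact permutation p = 0.906). Adjusted over these 6 values (Benjamini-Hochberg), the exact permutation p was 0.667 or 0.906 for each. Only r after taking off the group means was positive.

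**Figure D2:**
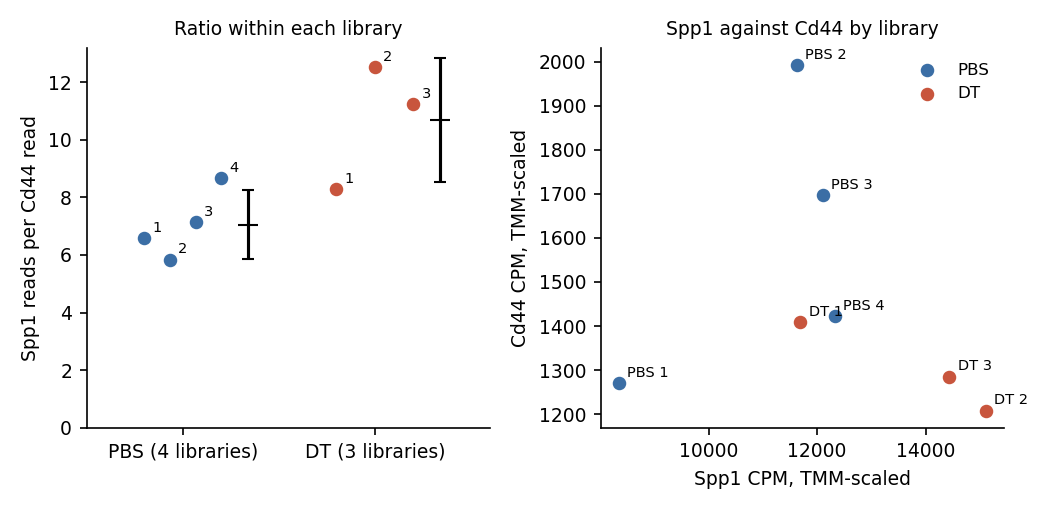
Left, Spp1 reads per Cd44 read in each library of PBS (blue) and DT (red), with the mean ± SD as a bar. Right, TMM-scaled CPM of Cd44 (y axis) against that of Spp1 (x axis), 1 point per library; both axes start above 0. DT 2 and DT 3 have the highest ratios, 12.5 and 11.2, and DT 1 (8.29) lies beside PBS 4 (8.66) in both panels.

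Transcripts of other cell types that can make osteopontin or CD44 were low but not even across libraries. Of 12 listed macrophage and monocyte markers 11 were in the table and 10 had reads. Their sum was 872 to 1916 CPM in PBS and 1496 to 1654 CPM in DT. Cd14 had 4169 to 7746 counts in every library and made up most of the sum in all but PBS 4. In PBS 4 it gave 4425 of 9708 counts. Without Cd14, a split made after seeing the values, the sum was 56.4 to 1043 CPM in PBS, highest in PBS 4, and 209 to 387 CPM in DT. Adgre1, which encodes the macrophage antigen F4/80, had 0 counts in every library. Lyz2 had 1522 counts in PBS 4, 0 to 8 in the other PBS libraries and 69 to 330 in DT. PBS 4 had the highest Spp1 level of the PBS group, 12321 CPM beside 12100.3 CPM in PBS 3, and ranked 3 of 4 for Cd44.

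With the macrophage score as a covariate the log2 fold change was 0.23 for Spp1 and -0.34 for Cd44, and without Cd14 in the score it was 0.23 and -0.25 (edgeR adjusted p = 1.00 for each). Without PBS 4 the values were 0.36 and -0.35. Hepatocyte markers, 8 of 10 with reads, summed to 1320 to 1928 CPM in PBS and 1975 to 2826 CPM in DT. The sum was thus higher in every DT library, but not each marker. Alb had the most counts of the list, 3580 to 6471 in PBS and 7443 to 12411 in DT. Serpina1b also had more counts in each DT library. Ttr, Fgb and Trf overlapped between the groups, and Apoa1 had reads in PBS alone. Cps1 and Ass1 had 0 counts throughout. With the hepatocyte score as a covariate Spp1 stayed at 0.31 with the SE widened to 0.29, and Cd44 was at -0.24 (SE 0.53). Stellate and fibroblast markers reached at most 136 CPM in a PBS and 50.1 CPM in a DT library, with Lrat and Pdgfrb at 0 throughout. T and NK cell markers were at 0 to 43.4 CPM, with Cd3d, Cd3e and Cd3g at 0 in all 7 libraries. Endothelial markers were at 0 to 57.8 CPM, with Vwf and Clec4g at 0 throughout. Neutrophil markers, 4 of 5 with reads, summed to 0 CPM in PBS 1, PBS 2 and PBS 3 and to 386 CPM in PBS 4, against 36.7, 191 and 96.3 CPM from DT 1 to DT 3. Ly6g, a defining neutrophil marker, had no reads. Reads of this list were thus present in every DT library and in 1 of 4 PBS libraries. In DT 1 they came from S100a9 alone (221 counts), at a level where a count of 0 is common. The part of these markers in the Spp1 and Cd44 results was not tested.

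**Figure D3:**
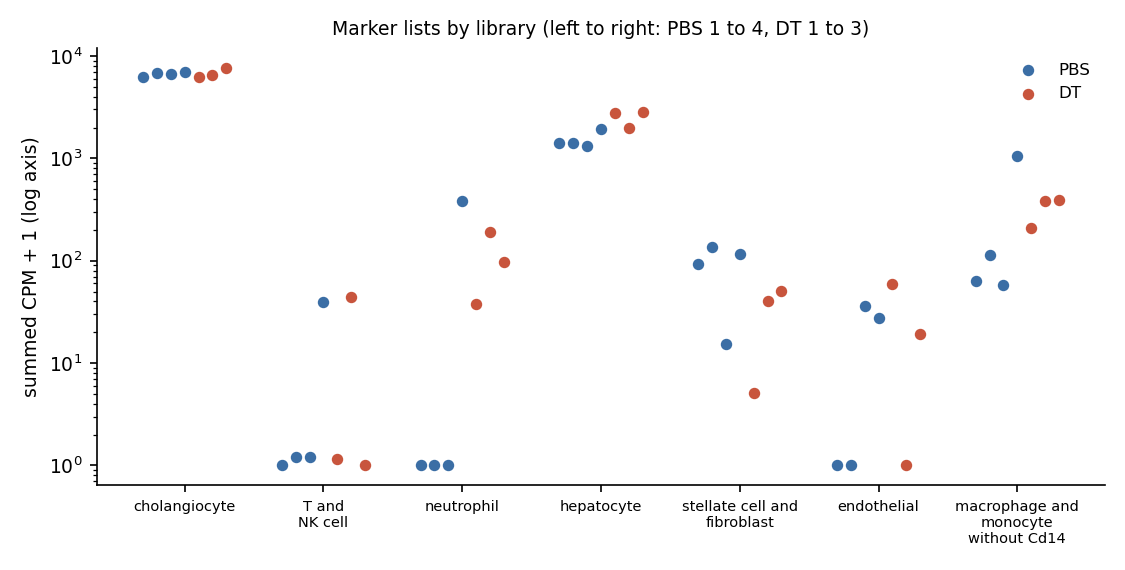
Summed TMM-scaled CPM plus 1 (log axis) of cell type marker lists, 1 point per library in the order PBS 1 to 4 (blue) and DT 1 to 3 (red). The macrophage list is drawn only without Cd14, a split made after seeing the values. Its full sum, 872 to 1916 CPM in PBS and 1496 to 1654 CPM in DT, is not drawn. Cholangiocyte markers are level at 6191 to 7689 CPM. The hepatocyte sum, in which Alb has the most counts, is higher in each DT library (1975 to 2826) than in any PBS library (1320 to 1928). The macrophage list without Cd14 is highest in PBS 4 (1043).

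The wider pathway of the 2 genes was read from 8 lists holding 65 further genes, of which 40 passed the filter on low counts and 13 had no read in any library. In the edgeR fit 0 of the 40 passed over all genes, with 14 positive and 26 negative log2 fold changes and a median of -0.25, against a median of -0.02 over all 7688 tested genes. At an unadjusted p below 0.05, 2 were higher (Tgm2 and Sox9) and 4 lower (Itga9, Hyal1, Msn and Mmp14), where 1.39% and 2.11% of all tested genes were. No list was tested as a set. The members of these lists with the most reads are described below by role, each with an edgeR adjusted p of 1.00.

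Of 11 osteopontin receptor genes 7 were tested, CD44 among them, 2 with positive and 5 with negative fold changes. Among the integrins most reads were of the alpha v chain and its partners. Itgav, the alpha v chain, averaged 499.9 ± 65.3 CPM with PBS against 385 ± 123 CPM with DT, while Itgb1, the beta 1 chain, averaged 606 ± 121 and 660 ± 372 CPM. Itgb6, the epithelial beta 6 chain that pairs with alpha v, averaged 229 ± 81.7 CPM with PBS against 129 ± 31.3 CPM with DT, with a log2 fold change of -0.82 (95% interval -2.14 to 0.50). The beta 3 chain gene Itgb3, and Itga4 and Itga8, had 0 counts in all libraries. Itga9, a further osteopontin-binding chain outside the rule for named genes, had 69, 69, 233 and 45 counts (PBS 1 to 4) against 0 in all DT libraries (unadjusted p = 0.0355). For Itga9 the DT libraries all lay below those of PBS, as for 2.58% of all tested genes, at a level where a count of 0 is common. The other SIBLING genes, Ibsp, Dmp1, Dspp and Mepe, had no reads, so Spp1 was the single member of its family detected.

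Of 9 genes whose products cut or modify osteopontin, 4 were tested. Tgm2, a transglutaminase that cross-links osteopontin, had 2802, 2154, 3270 and 4031 counts (PBS 1 to 4) against 7167, 7592 and 5007 (DT 1 to 3). Its mean was 609 ± 160.5 CPM with PBS against 1166 ± 272 CPM with DT. Each DT library lay above each PBS library, as did 3.73% of all tested genes. The log2 fold change was 0.94 (SE 0.30, edgeR unadjusted p = 0.00366, adjusted p = 1.00), with adjusted p = 0.0589 by DESeq2 and 0.0611 by limma-voom, so it passed by none of the 3 tools. Mmp7, a matrix metalloproteinase of ducts that cleaves osteopontin, was at 193 ± 46.4 and 193 ± 104 CPM, with a log2 fold change of -0.01 and a 95% interval of -1.29 to 1.27. Ctsd, the lysosomal protease cathepsin D, was at 423 ± 329 and 354 ± 124 CPM and was highest in PBS 4. Fam20c, the kinase of secreted phosphoproteins, had 0 to 481 counts per library. Mmp3 and Mmp9 had no reads, and the thrombin gene F2 had reads in PBS 4 alone (135 counts).

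Of 8 reported transcriptional regulators of Spp1, 5 were tested, 2 with positive and 3 with negative fold changes. Sox9, a duct transcription factor, was at 1058, 1045, 1231 and 1313 CPM from PBS 1 to PBS 4, against 969, 2117 and 2621 CPM from DT 1 to DT 3. DT 2 and DT 3 were thus above every PBS library and DT 1 below all of them, and the log2 fold change was 0.71 (SE 0.27, edgeR unadjusted p = 0.0124, adjusted p = 1.00). DT 2 and DT 3 also had the highest Spp1 CPM. The AP-1 genes Jun and Fos were at 1178 ± 133 and 735 ± 186 CPM in PBS and 958 ± 248 and 868 ± 172 CPM in DT. Fosl1, a further AP-1 gene, went from 532 ± 115 to 318 ± 111 CPM (log2 fold change -0.74, 95% interval -1.55 to 0.06). Runx2 had 17 counts in PBS 1 and 0 elsewhere, and Gli1 had none.

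On the CD44 side, genes of the membrane partners included the ERM linkers. Ezr, which encodes ezrin, averaged 666 ± 112 CPM with PBS against 741 ± 38.8 CPM with DT, with a log2 fold change of 0.15 and a 95% interval of -0.48 to 0.79. Msn, which encodes moesin, had 891, 2941, 2166 and 2286 counts (PBS 1 to 4) against 735, 1190 and 1137 (DT 1 to 3). PBS 1 lay with the DT libraries. The Msn mean was 413 ± 171 CPM with PBS against 182 ± 53.2 CPM with DT (log2 fold change -1.18 with SE 0.50, edgeR unadjusted p = 0.0218, adjusted p = 1.00). With Y-linked reads as a covariate, and so against PBS 1 alone, the log2 fold change was 0.07. Rdx (radixin) and Ank3 (ankyrin G) had log2 fold changes of -0.29 and -0.25 with intervals that span 0. Of the 8 tested partner genes 6 had negative and 2 positive fold changes.

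Of the 8 listed genes for cleavage of CD44, 7 were tested, 5 with negative fold changes. Mmp14, a membrane-bound metalloproteinase that sheds CD44, had 1575, 977, 2584 and 1972 counts (PBS 1 to 4) against 692, 1149 and 774 (DT 1 to 3). Its mean was 355 ± 143 CPM with PBS against 156 ± 53.1 CPM with DT (log2 fold change -1.19 with SE 0.52, edgeR unadjusted p = 0.0287, adjusted p = 1.00). PBS 2 lay below DT 2, so the groups overlapped. Adam10, another sheddase, was at 208 ± 45.4 and 148 ± 94.5 CPM and was lowest in DT 3. Psen2, of the gamma-secretase that cuts the remaining stub, had a log2 fold change of 0.13 with an SE of 1.87, too wide to place it.

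Genes of the CD44 ligand hyaluronan were sparse. The synthase genes Has1 and Has2 had no reads and Has3 had 50 counts in PBS 4 alone. Of 11 listed genes 5 were tested. Tmem2, a cell-surface hyaluronidase gene, averaged 232 ± 121 CPM with PBS against 239 ± 112 CPM with DT. Ugdh, which makes the UDP-glucuronate precursor, was at 81.6 ± 52.9 and 41.9 ± 50.0 CPM. Hyal2 had reads in 3 of 4 PBS libraries and in DT 3 alone, and Srgn, a proteoglycan of blood cells that binds CD44, was highest in PBS 4 with 1001 counts. Hyal1, outside the rule for named genes, had 525, 17, 1 and 147 counts (PBS 1 to 4) against 0 in all DT libraries (edgeR unadjusted p = 0.0301). Its DT libraries all lay below those of PBS, as for 2.58% of all tested genes, by a single count in PBS 3. This is again a level where a count of 0 is common.

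Splicing regulators of Cd44 had 5 of 6 genes tested. Hnrnpm, a regulator that acts against the epithelial splicing proteins on Cd44, averaged 393 ± 74.2 CPM with PBS against 566 ± 60.3 CPM with DT, with no overlap, as for 3.73% of all tested genes (log2 fold change 0.53, 95% interval -0.22 to 1.27). Khdrbs1 (Sam68) ranged from 1 to 1563 counts. Srsf3 and Tra2b, both splicing activators, had log2 fold changes of -0.22 and -0.01. Esrp1, the epithelial splicing factor that favours variable exons, falls outside the rule for named genes and had 81, 404, 357 and 174 counts (PBS 1 to 4) against 1257, 450 and 555 (DT 1 to 3). Its DT libraries lay above those of PBS, as did those of 3.73% of all tested genes, at counts where a 0 is common, with a log2 fold change of 1.36 (95% interval -1.67 to 4.39, adjusted p = 1.00). Its relative Esrp2 had no reads. The isoforms themselves were not read by this assay.

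**Figure D4:**
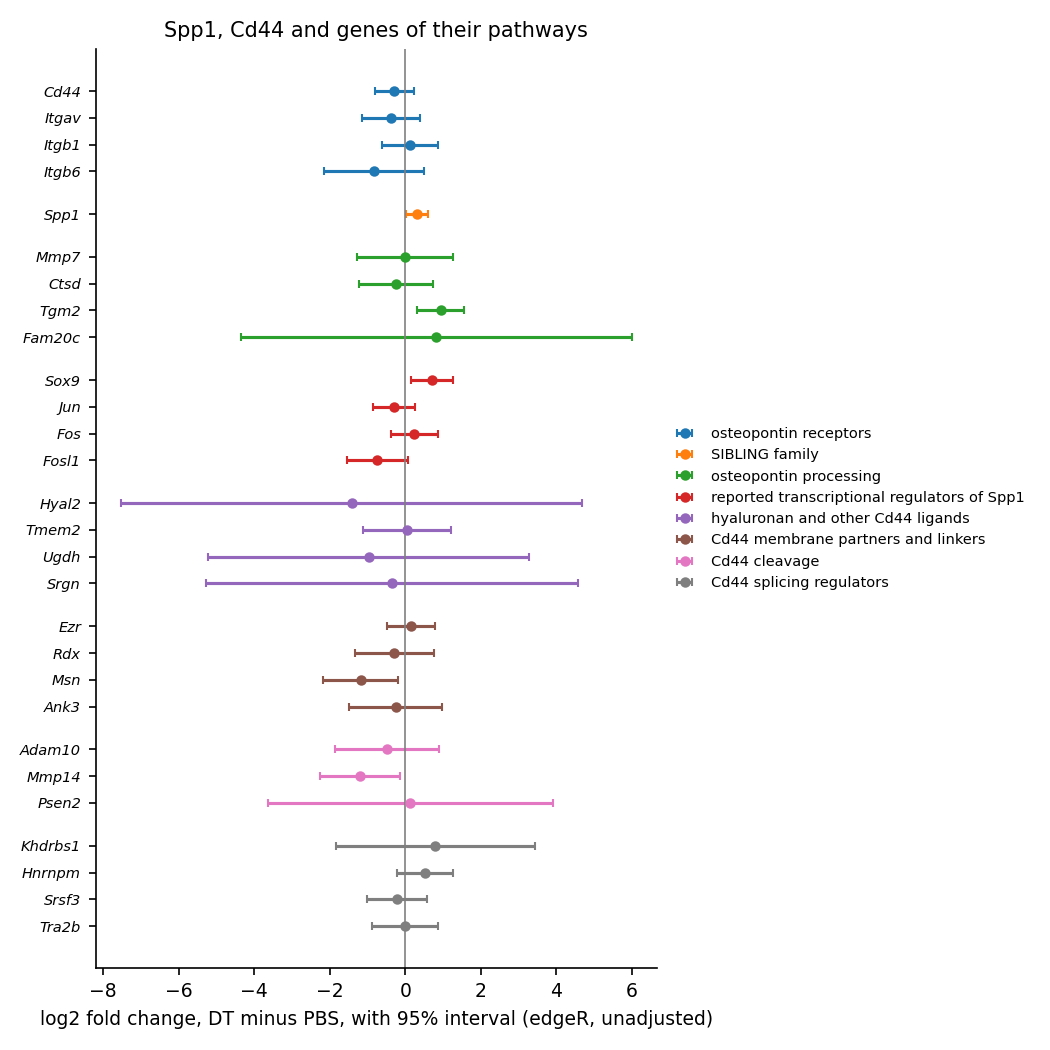
Log2 fold change, DT minus PBS, of Spp1, Cd44 and 26 pathway genes (y axis), with the unadjusted 95% interval from the edgeR fit on 7 libraries; colours are the 8 lists. Spp1 has the narrowest interval (0.01 to 0.61), Tgm2, Sox9, Msn and Mmp14 have intervals that do not reach 0, and none of the genes passes after adjustment over all genes.

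The genes most like each member across the 7 libraries were taken by Pearson's r of log2 CPM among 730 well-read genes (average log2 CPM at least 8, with reads in every library). For Spp1 these were the kinesin gene Kifc3 (r = 0.97), the cell cycle inhibitor Cdkn1a (0.95), the receptor phosphatase Ptprk (0.94), the transcription factor Ets2 (0.93) and the ESCRT gene Vps37b (0.93), where the median r was 0.12. All 5 had higher means in DT, with log2 fold changes of 0.44 to 0.70. For Cd44 they were the chromatin remodelling gene Bptf (r = 0.91), the Golgi GTPase Rab6a (0.91), the translation factor Eif5b (0.89), the growth factor Pdgfb (0.87) and the EGF receptor inhibitor Errfi1 (0.84), where the median r was -0.03. All 5 had lower means in DT, with log2 fold changes of -0.69 to -0.30. These are the highest of many values over 7 libraries that share depth and group, and are given as a description. Because r was taken over both groups together, a direction shared with the member follows in part from the choice of genes.

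**Figure D5:**
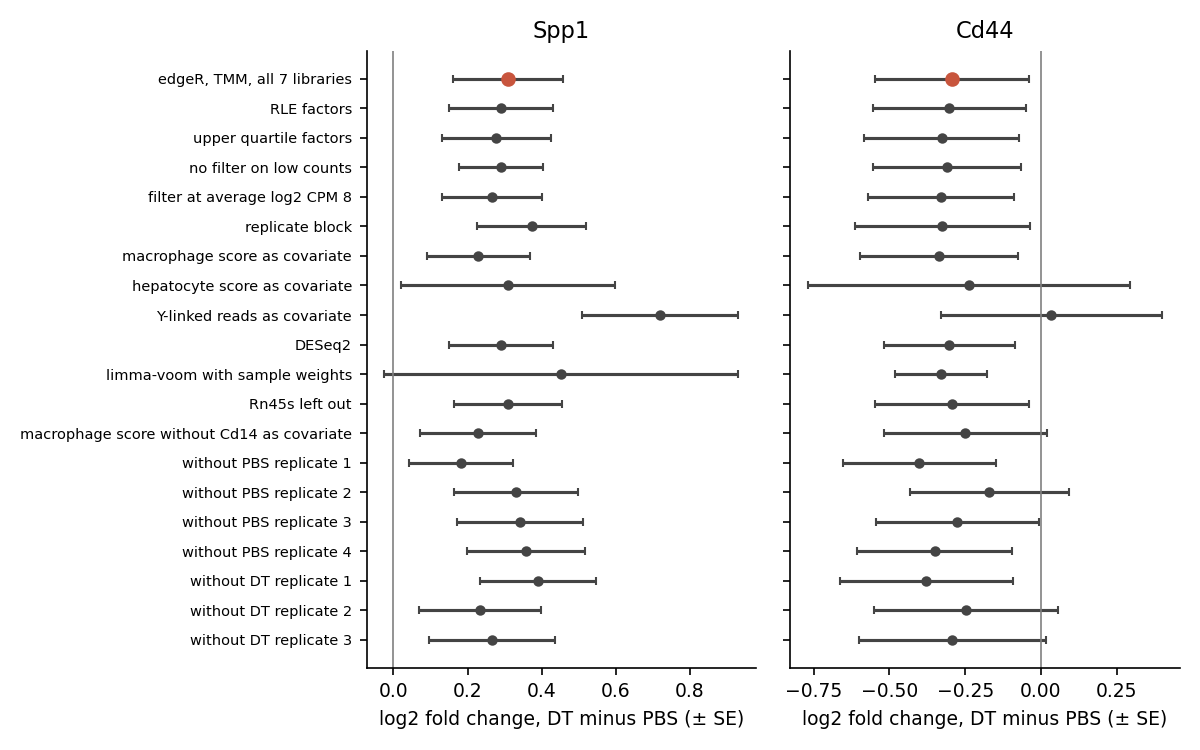
Log2 fold change, DT minus PBS, of Spp1 (left) and Cd44 (right) with its SE, in the edgeR fit on all 7 libraries (red) and under each other scaling, filter, covariate, tool or left-out library (grey). Spp1 is positive in every row, from 0.18 without PBS 1 to 0.72 with Y-linked reads as a covariate, and Cd44 is negative in every row except that covariate (0.03). With that covariate the DT libraries are compared with PBS 1 alone.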

How the data were processed

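Bulk RNA of EpCAM-sorted cholangiocytes was measured in 4 PBS and 3 DT libraries, grouped by the sample titles. The authors deposited raw, unscaled counts of reads for each gene symbol. Libraries were made with a QuantSeq FWD kit, per the labels' protocols, and reads were placed on mm9, per the submitters' processing notes. Not given in the sources used here: aligner, counter, annotation and molecular identifiers. Wilson intervals and the limit for a count of 0 cover counting error only, while intervals of fold changes come from the edgeR fit. With edgeR 4.0.16 (R 4.3.3), TMM factors and filterByExpr kept 7688 genes, holding 97.5% of counts. The DT and PBS groups were compared by the quasi-likelihood F test with robust dispersion and Benjamini-Hochberg adjustment over those genes. The SE comes from the fold change and F statistic. Scripts were tested on simulated counts, with 200 genes of average log2 CPM at least 8 changed. At a log2 fold change of 1 the edgeR fit called 0% of them. At 2 it called 15.5%, along with 3 unchanged genes. The simulation used the edgeR dispersion of each gene, a coefficient of variation of 0.41 for Spp1 and 0.47 for Cd44. In the data that of Spp1 CPM was 16.7% in PBS and 13.2% in DT, and that of Cd44 19.9% and 7.81%. For the 2 members the simulated libraries were thus noisier than the data, and the shares called may be too low for such genes. A gene that does not pass the adjusted threshold is not shown to be unchanged. Exact permutation tests used all 35 splits. Named pathway genes were those past the threshold and otherwise up to 4 tested members per list with the highest mean CPM; 1 gene so chosen is not reported here. The members, lists and rules were chosen with earlier results of these data known. Alternatives used limma 3.58.1 and DESeq2 1.42.0. Figures were drawn with matplotlib 3.10.9.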

Additional observations from a re-analysis of the deposited data

Results flagged for a closer look

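Of 29 values checked for a library far from the other 3 of the PBS group, 1 lay apart. Chance alone marks about 1 in 20 such values, here 1.45. Mmp7, whose protease cleaves osteopontin, was at 125 CPM in PBS 2 and at 208 CPM in the nearest other PBS library, a gap of 0.834 of the range of the group.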

How the results depend on the processing

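Spp1 stayed positive in all 19 other fits (log2 fold change 0.18 to 0.72). Its smallest adjusted p was 0.429 (edgeR, genes of average log2 CPM at least 8), leaving aside the fit with Y-linked reads. Cd44 was negative in 18 of 19 (-0.40 to 0.03, adjusted p from 0.601 to 1.00). Neither gene passed the adjusted threshold in any fit. The extremes of 0.72 and 0.03 came from the Y-linked covariate, which compares the DT libraries with PBS 1 alone. The exact permutation tests of the Spp1 level, the Cd44 level and their ratio kept their direction in each alternative run for them. The 3 genes called over the whole table became 8 with no filter on low counts, 5 among genes whose average log2 CPM was at least 8, 5 with the macrophage score, 0 with the hepatocyte score, 26 with Y-linked reads as a covariate, 105 by DESeq2 and 21 by limma-voom, and ran from 1 (without PBS 1 or PBS 2) to 5 (without DT 1) when 1 library was left out. With the replicate number as a block 12 genes were called, and Spp1 was at 0.37 and Cd44 at -0.32 (adjusted p = 1.00 for each). Deviations from the group means correlated at -0.06 to 0.03 between same-numbered libraries over 733 genes, and for 1 of 3 DT libraries the best match was its own number, so the numbers were not used as pairs. The log2 fold changes below had the opposite sign to the edgeR fit on 7 libraries, most of them near 0 or resting on few reads. With Y-linked reads, and so against PBS 1 alone: Cd44 0.035, Itgb1 -0.078, Hyal2 1.90, Tmem2 -0.13, Srgn 0.21, Msn 0.074, Adam10 0.0070, Psen2 -0.26 and Srsf3 0.55. With the hepatocyte score: Mmp7 0.50, Tmem2 -0.21, Ugdh 0.44, Ank3 0.69, Adam10 0.26 and Psen2 -2.10. With the macrophage score: Ank3 0.23 and Tra2b 0.12, and with that score without Cd14, chosen after seeing the data, Itgb1 -0.064, Tmem2 -0.14, Ank3 0.37 and Tra2b 0.039. By limma-voom: Mmp7 0.20, Srgn 3.54, Ank3 0.10 and Tra2b 0.18. With the replicate block: Ctsd 0.48, Srgn 8.72 and Tra2b 0.015. Tmem2 was at -0.0042 with RLE factors and by DESeq2. Leaving out 1 library gave both signs for Itgb1 (-0.28 to 0.49), Mmp7 (-0.46 to 0.32), Ctsd (-0.59 to 0.39), Tmem2 (-0.34 to 0.34), Srgn (-0.85 to 1.78), Ank3 (-0.53 to 0.23), Psen2 (-0.44 to 0.76) and Tra2b (-0.45 to 0.19). Apart from fewer genes or libraries, which includes the comparison with PBS 1 alone, the cause was not tested. Counts of 0 being common, differences below about 1000 counts are hard to see. Among genes whose average log2 CPM was at least 8, most changes put into simulated counts were also not called. Those simulated counts were noisier than the data for Spp1 and Cd44.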
